A study of Schizosaccharomyces pombe with 22 samples.

Results

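The wild-type histone H3 arrays of a fission yeast (Schizosaccharomyces pombe) series on Pst3, a homologue of the Sin3 corepressor, were examined. They were 2 of its 22 samples, taken by their labels as anti-H3 chromatin immunoprecipitations from wild-type cells carrying neither the hst2D nor the hst4D deletion. One was hybridised to an array of coding regions (open reading frames, ORF) and the other to an array of intergenic regions (IGR), each against wild-type input DNA, with the immunoprecipitate labelled Cy3 and the input Cy5. After blank spots and foreign or reporter control spots were left out, 4882 ORF regions, among them 10 probes named intergenic and 6 named intronic, and 4940 IGR regions remained, and all of them were used. Each array carried 2 spot sets, which are technical repeats of 1 hybridisation. With 1 array per probe set no test between arrays or regions was possible. Values of both spot sets show technical spread only, and the SDs and interquartile ranges below are over regions, genes or list members. The labels name neither the strain background, the medium nor the antibody's source.

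Histone H3 is one of the 4 core histones and, with H4, forms the centre of the nucleosome. Immunoprecipitation with an antibody against the histone itself, whatever its modification, is used to ask where nucleosomes are dense. In fission yeast, as in other eukaryotes, promoters of active genes generally hold a nucleosome-depleted stretch, while coding regions carry regular arrays of nucleosomes and the centromeric repeats, mating-type region and subtelomeres are packed as heterochromatin.

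The value reported for each region, called the H3 ratio, is the deposited signal intensity over the deposited reference intensity, as log2, centred on the median of its array and averaged over spot sets. A value of 1 is 2-fold above the array median. The signal column was read as the immunoprecipitate and the reference as genomic DNA, which the files do not state, so the direction of every ratio rests on that reading. With the columns the other way round every ratio would keep its size and turn its sign, and each high or highest value would be a low or lowest one. The reference was the same column on all anti-H3 arrays of a probe set, not the input of the same slide. Because ORF and IGR arrays were centred separately, a ratio of 0 on one does not equal a ratio of 0 on the other.

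To show the kind of region at either end of the intergenic range, the 250 bases before the annotated gene start are printed for the genes with the 2 highest and the 2 lowest ratios, in RefSeq assembly ASM294v3, 5′ to 3′ on the gene's strand. The choice was made among IGR probes with signals above blank spots, a window free of annotated protein-coding genes and no "long" in the probe name. The files give no build and no coordinates for these probes, so these windows are the annotated promoters of the named genes and not the probes. Capitals mark runs of 8 or more A or of T.
rps2201, named rps15a-1 on the array and coding for a small-subunit ribosomal protein, chrI:1162659-1162908, minus strand: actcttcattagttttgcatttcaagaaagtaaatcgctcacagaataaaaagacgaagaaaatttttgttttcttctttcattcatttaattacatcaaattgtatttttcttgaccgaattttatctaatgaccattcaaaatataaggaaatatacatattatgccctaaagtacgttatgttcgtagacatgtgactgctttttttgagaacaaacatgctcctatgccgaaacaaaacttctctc
nup60, coding for a nuclear pore protein, chrIII:1821440-1821689, minus strand: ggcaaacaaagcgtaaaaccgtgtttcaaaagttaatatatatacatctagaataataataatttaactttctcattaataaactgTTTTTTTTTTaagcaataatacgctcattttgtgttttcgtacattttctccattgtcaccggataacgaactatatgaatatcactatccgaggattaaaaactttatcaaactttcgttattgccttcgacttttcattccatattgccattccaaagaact
SPAC56F8.15, chrI:1151818-1152067, plus strand: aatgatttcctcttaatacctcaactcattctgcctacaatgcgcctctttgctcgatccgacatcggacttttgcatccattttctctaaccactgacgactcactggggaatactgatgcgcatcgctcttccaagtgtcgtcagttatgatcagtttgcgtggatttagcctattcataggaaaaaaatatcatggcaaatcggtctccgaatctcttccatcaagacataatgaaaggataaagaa
SPAC212.06C, near the left end of its chromosome, chrI:17822-18071, plus strand: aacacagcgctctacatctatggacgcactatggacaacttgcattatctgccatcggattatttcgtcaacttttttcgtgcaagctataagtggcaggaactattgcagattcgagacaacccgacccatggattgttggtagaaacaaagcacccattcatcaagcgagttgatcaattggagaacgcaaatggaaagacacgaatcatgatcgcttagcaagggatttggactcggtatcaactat
The high pair, rps2201 and nup60, held 29.6% and 29.2% G+C in these windows, and the low pair, SPAC56F8.15 and SPAC212.06C, held 42.0% and 43.6%. Their H3 signals were alike. The rps2201 region gave signals of 1725.5 and 1222 in the 2 spot sets over a reference of 30, and the nup60 region 1307.5 and 1550.5 over a reference of 54. The SPAC56F8.15 region gave 1430 and 1336 over a reference of 8919.5, and the SPAC212.06C region 1504.5 and 1857 over a reference of 9055. The 4 ratios were 4.89, 4.02, -3.39 and -3.14 in the order printed, while the signals alone, centred in the same way, were all above the array median, at 0.45, 0.42, 0.38 and 0.65.

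H3 signals filled a narrow range on both arrays. The median ORF signal was 1069 in spot set 1 and 1061 in spot set 2, and the median IGR signal 1058 and 1069. Blank spots on the ORF array had medians of 695 and 702, and those on the IGR array 654.5 and 656.75. Less the local background, the median region carried 375 and 374 units on the ORF array and 369 and 372.5 on the IGR array. A signal and reference above the 95th percentile of blank spots in both spot sets, and below the scanner's limit, was found for 2046 ORF regions (41.9%) and 1728 IGR regions (35.0%). The other regions have ratios that rest on a signal or reference in the range of blank spots, and those among them named below are marked as such. For the reference this limit was 55.2 on the ORF array but only 2.25 on the IGR array. Very low IGR references therefore passed it. The reference spread more widely, with 5th and 95th percentiles of 484 and 4809 on the ORF array and of 158 and 2529 on the IGR array. The 5th and 95th percentiles of the signal were 658 and 1760 in spot set 1 of the ORF array and 657 and 1757 in spot set 1 of the IGR array.

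On the ORF array 615 regions (12.6%) lay at least 2-fold above the array median in both spot sets and 593 (12.1%) at least 2-fold below. On the IGR array 752 (15.2%) lay above and 798 (16.2%) below. At this limit the nearest regions had, in their lesser spot set, 1.002 inside (SPAC6C3.05) and 1.000 outside (pma2) for high ORF regions, both with signals not above blank spots. The SD of the ratio over regions was 1.14 on the ORF array and 1.19 on the IGR array, and that of the log2 signal alone 0.43 and 0.42. The difference in ratio between spot sets had an SD over regions of 0.286 and 0.283. Spot sets ranked the ORF ratios alike with a Spearman correlation of 0.957 and the IGR ratios with 0.965, across regions, which are not independent replicates and share the reference in both sets. For the signal alone, where no reference is shared, these correlations were 0.796 and 0.801.

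The ratio followed the reference closely. Its Spearman correlation with the reference was -0.904 across ORF regions and -0.919 across IGR regions, and the reference is the ratio's own denominator. Every region called low on either array, 593 ORF and 798 IGR regions, had a reference above its array's median, and 607 of 615 high ORF regions and all 752 high IGR regions had one below it. The signal of those regions was near the array's middle. High ORF regions had a median centred signal of 0.11 and low ORF regions one of -0.03; high IGR regions had -0.002 and low IGR regions -0.05. On signal alone 65 ORF regions (1.33%) were at least 2-fold above the median and 3 (0.0615%) below, and on the IGR array 45 (0.911%) above and 1 (0.0202%) below. Of the 615 high ORF regions 11 were also high in signal alone, and of the 752 high IGR regions 12 were. The ratios below therefore stand beside the signal alone.

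**Figure D1:**
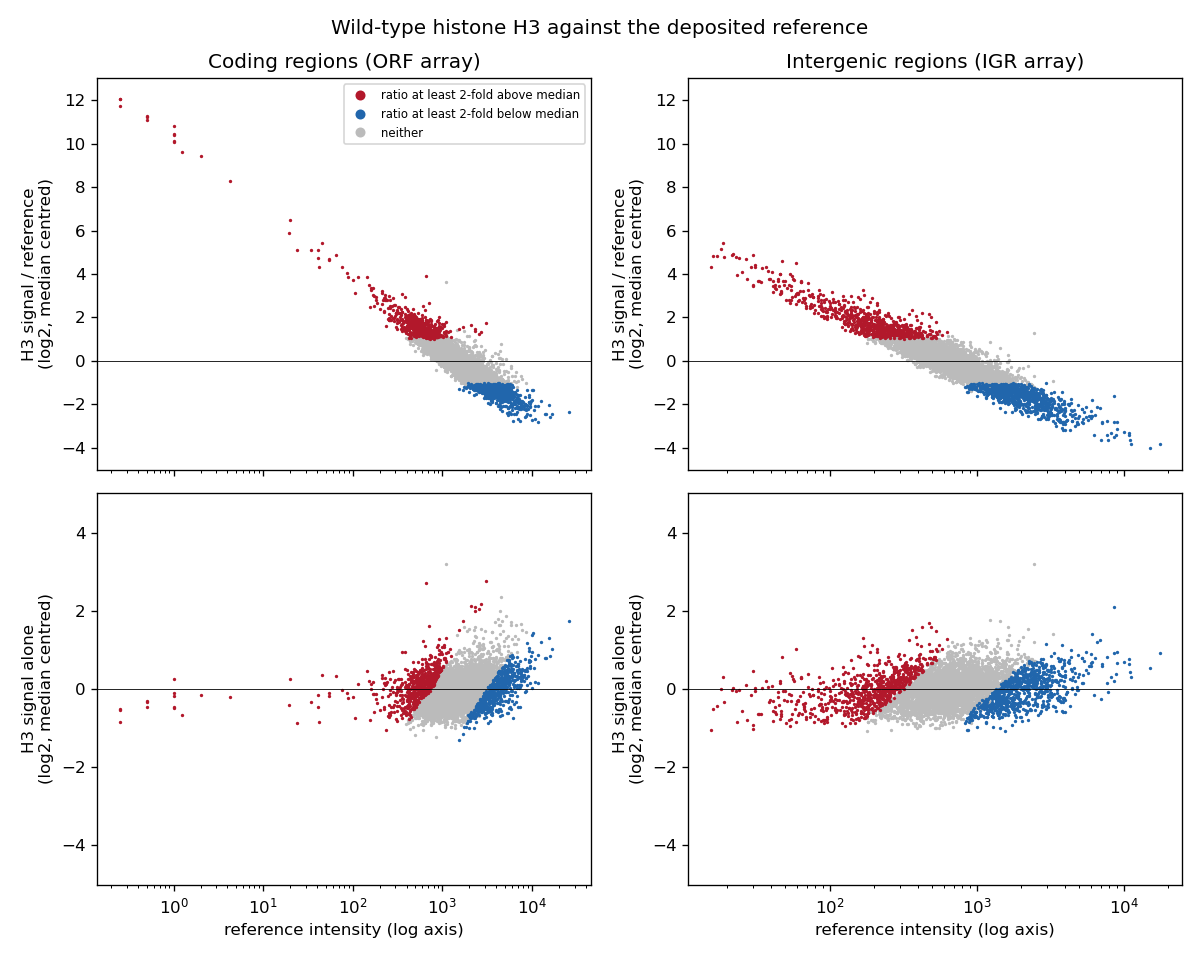
H3 ratio (top row) and H3 signal alone (bottom row), both log2 and median centred, against the reference intensity on a log axis, for each ORF region (left) and IGR region (right); each point is 1 region averaged over 2 spot sets and colours mark ratios at least 2-fold from the median. The ratio declines along the reference on both arrays (Spearman -0.904 and -0.919), while the signal alone stays within a narrow band.

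Among regions of the ORF array measured above blank spots, the 10 highest ratios lay between 3.06 and 4.89. The highest was naa40, coding for a histone N-terminal acetyltransferase, with signals of 1297 and 1398.5 over a reference of 64.5 and a ratio of 4.89. The Mediator subunit gene pmc3 stood apart from the other 9 by a bright signal, 8710 and 5602.5, over a reference of 659.25. Its ratio was 3.91, and its signal alone was 2.71 above the median. The Rab GTPase gene ypt5 had signals of 1488 and 1448.5 over 145.25, and rpb4, a subunit of RNA polymerase II, had 1099 and 1315 over 169, for ratios of 3.85 and 3.34. SPBC16G5.13 (ptf2), SPBC16G5.11C (bag101, a co-chaperone of the BAG family) and SPBC16G5.17, which lie close together on chromosome II, had ratios of 3.37, 3.20 and 3.06. The remaining members were SPAC5H10.07 at 3.85, a non-coding probe named intergenic10 at 3.51 and a probe named pb10d8_sanger_8 at 3.11. Except for pmc3, these regions had a reference of 350.75 or less, against an array median of 1474.

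The 10 lowest ratios of that array lay between -2.80 and -2.25. On chromosome III lay 7 of them, against 847 of the 4646 ORF regions matched to a gene. The probe SPAC1348.01 had signals of 1146.5 and 1230 over a reference of 11777 and a ratio of -2.80. SPAC750.08C, at the right end of chromosome I, had 1097 and 1080 over 10123.5 and a ratio of -2.71. The others were gnr1 (-2.66), vta1, a gene of multivesicular body sorting (-2.57), hmt1, a vacuolar transporter of heavy-metal complexes (-2.51), the malic enzyme gene mae2 (-2.45), the guanine deaminase gene gud1 (-2.44), dis1, a microtubule-binding protein of the kinetochore and spindle (-2.44), wtf13, of the spore-killing wtf family (-2.35), and gpi2, of GPI anchor synthesis (-2.25). The signal alone was above the array median for all 10. For wtf13 the signals, 3845 and 3232, were at least 2-fold above the median signal in both spot sets, over a reference of 25654, and its centred signal was 1.73.

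The 10 highest intergenic ratios lay between 3.72 and 5.44, with references of 18.75 to 58.75 against an array median of 665. These references were above the limit from blank spots, 2.25, but below the array's 5th percentile of 158, so the ratios rest on very low denominators. The region named for pex32, coding for a peroxisomal membrane protein, had signals of 1282 and 1364 over a reference of 18.75 and a ratio of 5.44. After rps2201 came SPAC1782.12C at 4.59 and pop23 at 4.49, with pop23 signals of 2158 and 2152 over a reference of 58.75. The region of nup60 and the probe SPAC3C7.15c followed at 4.02 and 4.01. The list closed with ost3, of the oligosaccharyltransferase (3.98), snf30, of the SWI/SNF chromatin remodeller (3.89), dbs2 (3.78) and SPAC17A2.07C (3.72). All 10 had centred signals above the median, from 0.14 to 1.02.

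The 10 lowest intergenic ratios lay between -3.99 and -3.26, and their references ran from 7680.5 to 17557.5. The probe for the promoter of the 18S ribosomal RNA gene, which fission yeast carries in long tandem arrays, had signals of 1903 and 2109 over a reference of 17557.5 and a ratio of -3.83. A second probe of that name had 1642 and 1625.5 over 2804.5 and a ratio of -1.48. The centromeric dg1 repeat had 1597 and 1741.5 over 10842.5 and a ratio of -3.40, and the partial dhII repeat 1787 and 1820 over 10876.5 and a ratio of -3.30. Of the other 7, 5 were probes named as long IGRs, for SPAC212.06C (-3.99), SPCC794.05c (-3.65), clg1 (-3.39), SPAC750.01 (-3.33) and SPAC1399.02 (-3.26). The other probes of the last 3 genes, not named long and not above blank spots, differed from these, with a ratio of -0.14 for clg1 and ratios called high for SPAC750.01 and SPAC1399.02. The probe p4c9_4860_1 had a ratio of -3.80 and SPAC56F8.15 one of -3.39. The centred signals of all 10 were above the median, from 0.16 to 0.91. Long-IGR probes as a class had low ratios on this array, with 122 of 165 (73.9%) at least 2-fold below the median against 16.2% of all IGR regions. Their median ratio was -1.66, their median centred signal -0.03 and their median reference 1908.

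**Figure D2:**
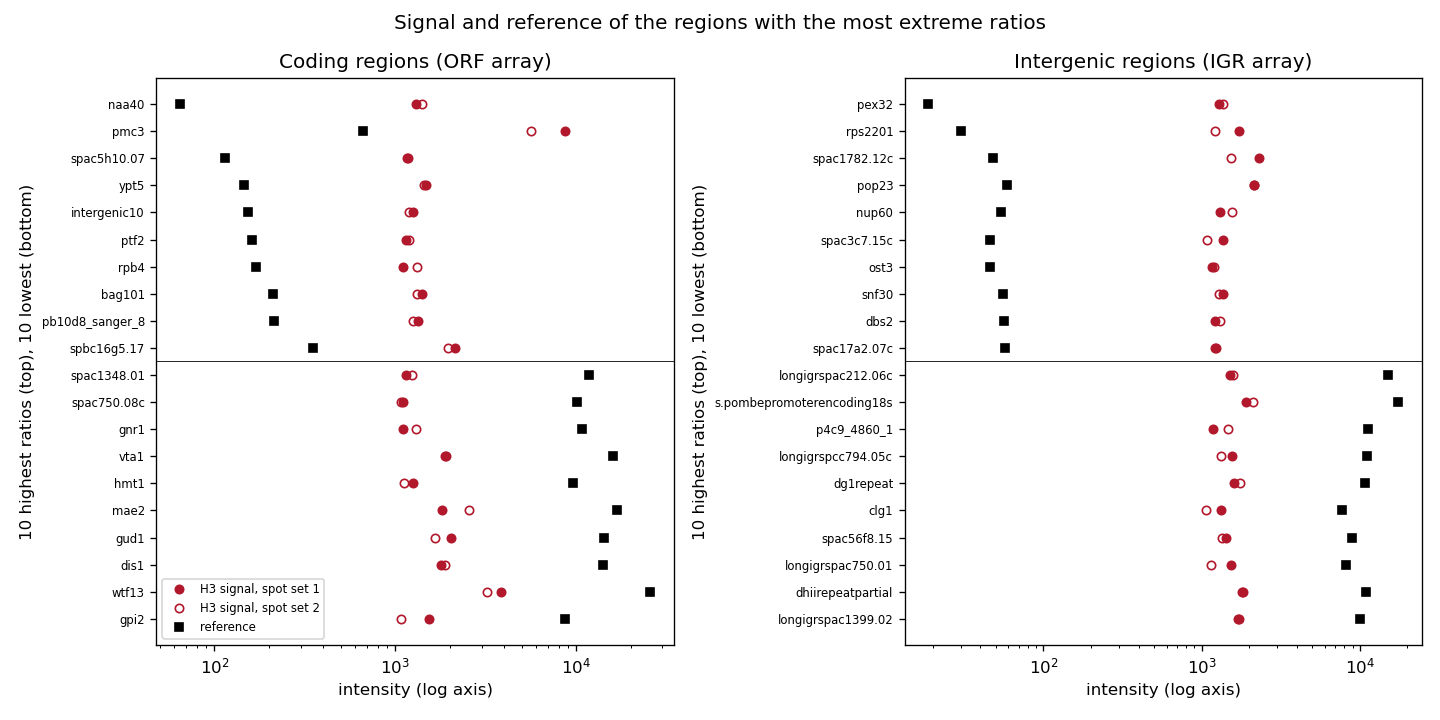
H3 signal in spot sets 1 and 2 (filled and open circles) and reference (squares), as intensities on a log axis, for the 10 highest and 10 lowest ratios above blank spots on the ORF array (left) and the IGR array (right). Signals of the high and low regions overlap, while their references do not.

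Brightness of the signal itself picked out other regions, which were chosen after their values were seen. On the ORF array SPAC17C9.11C had signals of 6603.5 and 7755 over a reference of 3048, and pmc3 (SPAC17C9.05C), close by on chromosome I, came next. The RNA helicase gene dbp2 had 7247 and 4144.5 over 4540, sap1, coding for an essential DNA-binding protein that also acts in mating-type switching, had 5278 and 4292.5 over 2707, and mtg2 had 5578.5 and 3833 over 2103. The ratios of these 4 were 1.74, 0.78, 1.32 and 1.65 for SPAC17C9.11C, dbp2, sap1 and mtg2. On the IGR array the brightest region was that of skb5, whose spot sets differed by nearly 1 on the log2 scale, with 7004 and 13751 over a reference of 2448.5. The probe pb10d8_448065_1 had 4807 and 4294 over a reference of 8597.5, so that its ratio, -1.62, was low and its centred signal, 2.09, high. The ribosomal protein gene rpl1603 had 3413 and 3485.5 in its IGR over 474, with a ratio of 2.16.

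The ORF array itself held non-coding probes, which allow coding and non-coding DNA to be set side by side on one slide. The 10 probes named intergenic had a median ratio of 1.70, from -0.30 to 3.51, and 7 of them were at least 2-fold above the array median, against 12.6% of all ORF-array regions. The 6 probes named intronic had a median ratio of 0.95, from 0.24 to 2.81, with 3 at least 2-fold above. Neither class held a low probe. In signal alone the intergenic probes had a median of -0.10, from -0.46 to 0.29, and the intronic probes one of -0.02, from -0.40 to 0.34, so both classes straddled the array median. Their median references were 426 and 756 against 1474 for all regions. The higher ratio of non-coding probes thus came with a lower reference and no higher signal.

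By gene function, medians of 30 lists on the ORF array ran from -1.02 to 0.61 and those of 29 lists with at least 8 members on the IGR array from -1.01 to 0.49. The median over all regions was -0.005 on both arrays. In signal alone the medians ran only from -0.25 to 0.24 on the ORF array and from -0.22 to 0.19 on the IGR array. Across lists the median ratio had a Spearman correlation of -0.861 with the median reference on the ORF array and of -0.951 on the IGR array. Long-IGR probes, of which 73.9% were low, counted as list members, so a gene with more than one probe could enter a list repeatedly. Their part in the list counts was not tested.

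Coding regions of the Tf2 retrotransposons, which fission yeast carries in many near-identical copies, had the lowest list median, -1.02, with 5 of 12 low and none high against 12.1% and 12.6% of all regions. Their signal alone had a median of 0.06. The copies differed: Tf2-8 and Tf2-5 had signals of 860 and 622 and of 1000.5 and 847.5 over references of 3960.5 and 4457, for ratios of -1.93 and -1.77. Tf2-1 and Tf2-2 had ratios of 0.46 and 0.35 over references of 1241 and 930.5. The signals of these Tf2-8, Tf2-5 and Tf2-2 probes were not above blank spots, and a second probe of Tf2-8, above them, had a ratio of -1.23. Whether probes of single elements take up DNA of other copies was not tested. Coding regions of cox1 and cox2, encoded by the multi-copy mitochondrial genome, had the lowest ratios of the respiratory chain list, -2.17 and -2.05, over references of 7291.5 and 7851.5. Their signals, 1149.5 and 1131 for cox1 and 1277 and 1392 for cox2, were above blank spots. Centred alone these signals were 0.10 and 0.32, above the array median. Whether signals at mitochondrial DNA reflect H3 was not tested.

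Core histone genes had median ratios of -0.62 in their ORFs and -0.66 in their IGRs, with 3 of 10 low and 1 of 10 high on each array, against 12.1% low and 12.6% high of all ORF regions and 16.2% and 15.2% of all IGR regions. The low ORFs were hta1 (-1.56) and hta2 (-1.42), coding for H2A, and the H4 gene hhf1 (-1.54). The high ORF was cnp1, coding for the centromeric H3 variant CENP-A, with signals of 1099 and 1168.5 over 584.25 and a ratio of 1.46, which turned to -2.88 with the local background subtracted. Among IGRs, those of hhf3 (-2.32), the H3 gene hht2 (-1.94) and hhf2 (-1.75) were low, and that of pht1, coding for the H2A.Z variant, was high at 1.42, with bright signals of 2181 and 1991. The hht3 region had -0.95 and that of hhf1 -0.76, neither called. H3 and H4 genes of fission yeast lie in divergent pairs that share an intergenic region, yet the probes named for hht3 and hhf3 had signals of 1598 and 2219 and of 616 and 839 over references of 2234 and 2206. Signals of the hhf1 ORF and of the hhf2 and hhf3 IGRs were not above blank spots. In signal alone the list medians were -0.03 in ORFs and 0.02 in IGRs.

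The genes of the Sin3 and histone deacetylase machinery that the series deals with lay on both sides of their arrays' medians, and hst2 alone of them was called, as a low ORF. The ORF ratio was -1.01 for pst1, 0.16 for pst2, 0.85 for pst3, the Sin3 homologues, and 0.21 for clr6, their class I deacetylase. The IGR ratios were -0.43, -0.18, -0.75 and -0.69 in the same order. For the sirtuin genes the ORF ratio was -1.02 for hst2 and -0.51 for hst4, and the IGR ratio was -0.21 for hst2 and 0.95 for hst4. The pst3 ORF had signals of 1447 and 1566 over 1187.5 and its IGR 1905 and 1732 over 1870, so its signal was above the median on both arrays, by 0.50 and 0.77. Of the other values in this group, those of the pst2 IGR and the hst2 ORF also rested on signals above blank spots.

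Among intergenic regions, those of glycolysis and fermentation genes had a median ratio of -1.0, with 8 of 17 low and 2 high against 16.2% and 15.2% of all regions. Their ORFs had a median of -0.005, with none of 16 high or low, where 12.6% of all ORF regions were high and 12.1% low. The IGR of the alcohol dehydrogenase gene adh1, one of the strongest fission yeast promoters, had signals of 1343.5 and 1370 over 5331 and a ratio of -2.68, and that of the pyruvate kinase gene pyk1 had 912 and 1095.5 over 2672 and a ratio of -2.12. The pyruvate decarboxylase genes pdc102 and pdc202 had high IGRs, 1.81 and 1.71, over references of 157.5 and 153.5. The signals of pyk1, pdc102 and pdc202 were not above blank spots. In signal alone the glycolysis IGRs had a median of 0.10, with 12 of 17 above the array median. Hexose transport and gluconeogenesis genes had a median IGR ratio of -1.01, with 3 of 8 low, against a signal-alone median of -0.12. The lowest were the long IGR of ght6 at -1.83 and the IGR of ght1, whose signal was not above blank spots, at -1.45. The other ght6 probe, also not above blank spots, had a ratio of -0.43 and was not called.

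Genes of the core environmental stress response, induced by many stresses through the Sty1 kinase, had a median IGR ratio of -0.70 with 8 of 25 low and 3 high, against 16.2% and 15.2% of all IGR regions, and a median ORF ratio of 0.05. Its lowest regions were not above blank spots: the IGR of the protease gene isp6 had signals of 807 and 748 over 3051.5 and a ratio of -2.68, and the long IGR of the catalase gene ctt1 had 980.5 and 877.5 over 2574.5 and a ratio of -2.18, against -0.96 for the other ctt1 probe. The thioredoxin gene trx2 was at the other end, with 1934 and 1481 over 238.75 and a ratio of 2.12 on one probe, while its second probe, not above blank spots, had 687 and 607.5 over 549.25 and a ratio of -0.47. Iron and copper genes had a median IGR ratio of -0.68 with 5 of 18 low and none high, against the same shares, and both probes of fio1, the multicopper oxidase of iron uptake, were the lowest, at -2.31 for the long IGR and -2.07 for the other, with signals not above blank spots. The median signal alone was -0.09 for the stress list and -0.10 for the iron and copper list.

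Lists with a median above that of all IGRs included RNA polymerase III (0.49, with 5 of 19 high and 2 low), the proteasome (0.44, with 3 of 33 high and 3 low) and DNA replication (0.44, with 12 of 45 high and 2 low), where 15.2% of all IGR regions were high and 16.2% low. The DNA replication IGRs had a median of 0.002 in signal alone and of 0.001 after loess. RNA polymerase III turned its sign in 5 settings: its IGR median was -0.17 in signal alone, -0.18 after loess, -0.60 with the local background subtracted, -0.30 without low references and -1.26 above blank spots. The proteasome IGRs had a median of -0.22 in signal alone and of -0.15 after loess, so the sign differed, and their ORFs had -0.44 in the ratio and -0.25 in the signal, with 24 of 33 below the median. The IGR of pre9, a core-particle subunit, was high at 2.93 over a reference of 77.5, and those of rpn501 and rpn502, near-identical genes for a regulatory-particle subunit, were low at -2.34 and -2.35. In ORFs pre1 was high (2.45) and rpn2 low (-1.65), and of these 5 regions rpn2 alone had signals above blank spots. The Mediator list, the bridge between activators and RNA polymerase II, had the highest ORF median, 0.61, with 8 of 23 high and 2 low against 12.6% and 12.1% of all ORF regions, and a signal-alone median of -0.11. After pmc3, srb4 was its highest ORF at 1.79, and med8 its lowest at -1.49, both with signals not above blank spots.

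Ribosomal protein genes, among the most transcribed genes of growing cells, had median ORF ratios of -0.29 for 71 large-subunit and -0.37 for 55 small-subunit genes. Their median IGR ratios were -0.24 for 78 and -0.44 for 55 regions. In the small-subunit IGRs 12 of 55 were low and 2 high, and in the large-subunit IGRs 20 of 78 low and 7 high, against 16.2% and 15.2% of all IGR regions. The medians of the signal alone were -0.04 and 0.03 in ORFs and -0.08 and -0.001 in IGRs. Many of these genes are in near-identical pairs, and whether their probes take up DNA of both was not tested. Thiamine-repressed genes had a median ORF ratio of -0.91, with 4 of 9 low and none high against 12.1% and 12.6% of all ORF regions. Its lowest members, with signals not above blank spots, were nmt1 (-2.06, signals of 748 and 724.5 over 4382.5) and the acid phosphatase gene pho1 (-1.61). Cell wall genes had a median ORF ratio of -0.69 with 10 of 40 low and 1 high against the same shares, and its lowest members, also not above blank spots, were the alpha-glucan synthase gene ags1 (-2.18) and adg1 (-1.83). In these 2 lists the median signal alone was -0.03 and -0.10.

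**Figure D3:**
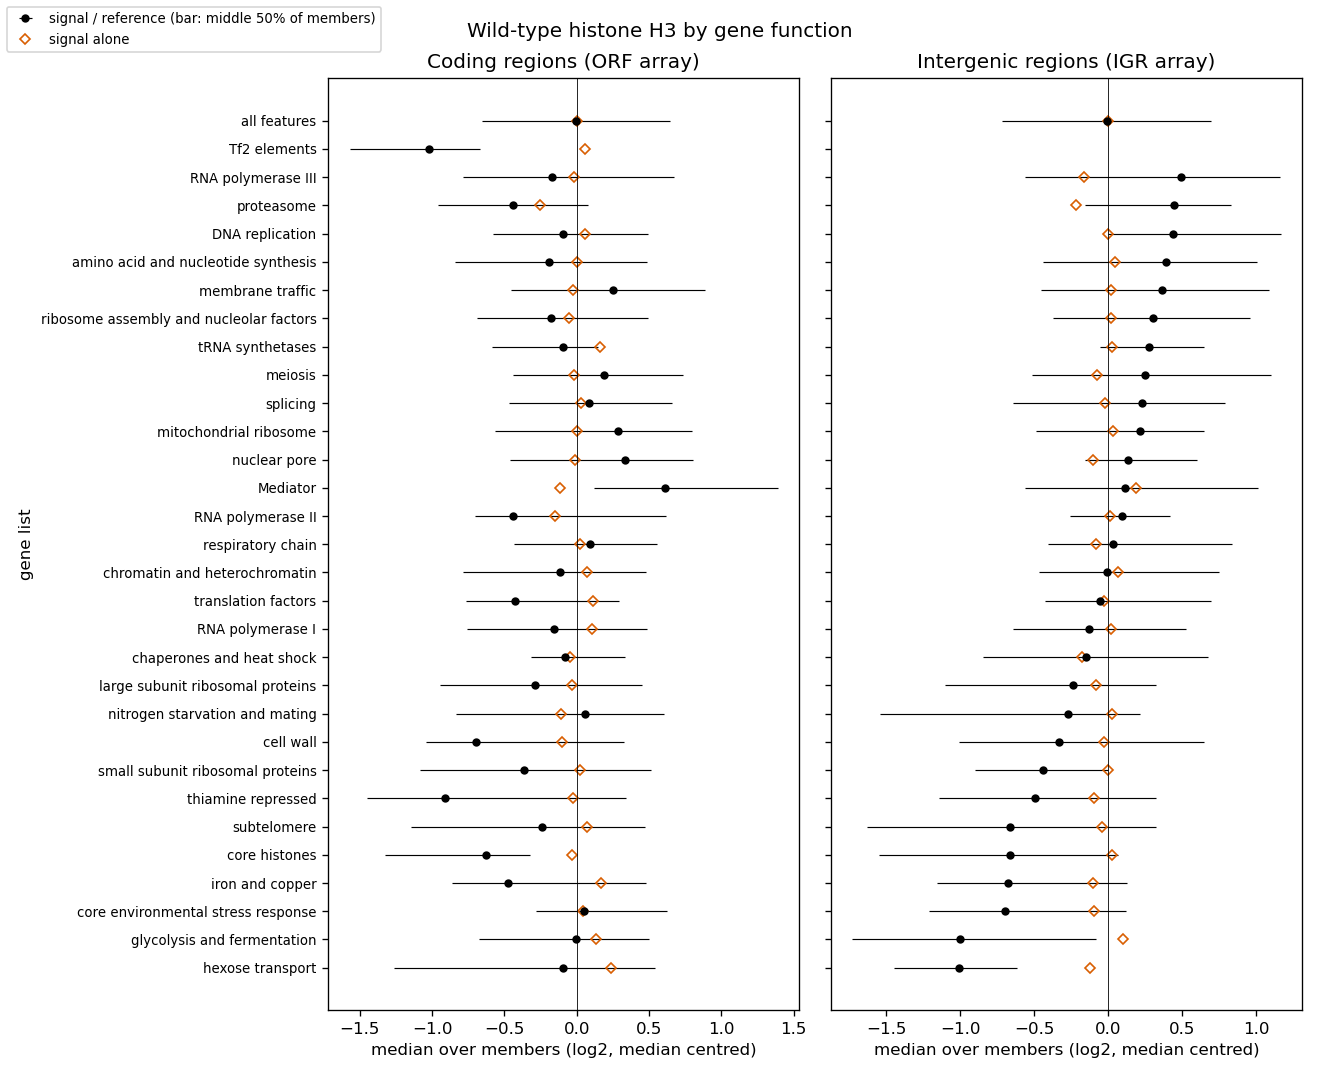
Median H3 ratio of each gene list (filled circles, with bars for the interquartile range of its members) and median H3 signal alone (open diamonds), log2 and median centred, on the ORF array (left) and the IGR array (right); lists are ordered by their IGR ratio and lists under 8 members are left blank. Ratio medians run from -1.02 to 0.61, and all signal medians lie between -0.25 and 0.24.

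An ORF and an IGR probe of the same name were present for 4396 genes. An IGR named for a gene is taken as that gene's own, although the files do not say on which side of the gene it lies. Across these genes the ORF ratio and the IGR ratio had a Spearman correlation of 0.122, the references one of 0.115 and the signals alone one of -0.044. The ORF ratio was above the IGR ratio in 2179 genes and below it in 2217, as separate centring of the arrays makes near-equal. The interquartile range of the differences, ORF minus IGR, ran from -0.94 to 0.84 for the ratio and from -0.41 to 0.40 for the signal alone. Both regions were high in 109 genes, which is 20.2% of genes with a high ORF and 16.0% of genes with a high IGR, where 15.5% of all these genes had a high IGR and 12.3% a high ORF. Both were low in 104 genes, 19.9% of genes with a low ORF and 16.9% of genes with a low IGR, where 14.0% and 11.9% of all these genes had a low IGR and a low ORF. A high ORF stood with a low IGR in 51 genes, 9.44% of genes with a high ORF, where 14.0% of all these genes had a low IGR. A low ORF stood with a high IGR in 72, 13.8% of genes with a low ORF, near the 15.5% of all these genes with a high IGR.

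Among the 629 genes with both regions above blank spots, the 5 largest differences, ORF minus IGR, ran from 3.75 to 4.13. The gene mrx21 had ORF signals of 1061 and 1084 over a reference of 218.75 and IGR signals of 1336 and 1379 over 2099, so that its ratios were 2.80 and -1.33. The pseudouridine synthase gene pus7 had ratios of 1.68 in its ORF and -2.28 in its IGR, SPAC1002.21 had 2.49 and -1.35, rbm8 had 1.21 and -2.60, and mpd1 had 1.91 and -1.84. In signal alone the same 5 differences were small, from -0.34 to 0.07.

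The 5 smallest differences ran from -7.49 to -3.71. For pex32 the ORF had 1172 and 1376.5 over 7476.5 and the IGR 1282 and 1364 over 18.75, for ratios of -2.05 and 5.44 from nearly equal signals. SPAC1782.12C had 0.32 in its ORF and 4.59 in its IGR, swd22 had -1.19 and 2.89, pop23 had 0.43 and 4.49, and the kinesin gene pkl1, named klp1 on the array, had -2.20 and 1.51. Here the difference in signal alone had the same sign as that in the ratio in all 5 genes, from -0.89 to -0.06. The IGR signals of pop23, 2158 and 2152, were above its ORF signals, 1229 and 1109, and those of pkl1, 1725 and 1854, above 1194 and 1102.

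**Figure D4:**
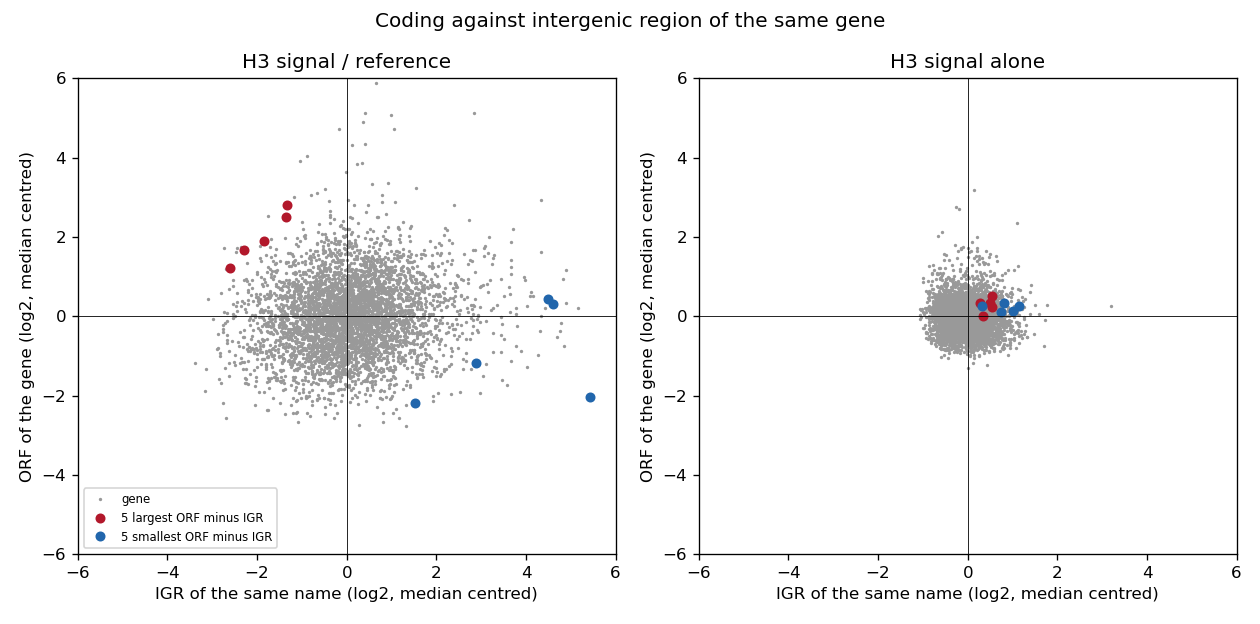
H3 value of the ORF (vertical) against that of the IGR of the same name (horizontal), log2 and median centred, for the ratio (left) and the signal alone (right); each point is 1 of 4396 genes, and the 5 largest and 5 smallest differences among genes above blank spots are coloured. Some ratios beyond the axes (6 on the log2 scale) are not drawn; the coloured genes spread widely in the ratio and sit near the centre in the signal.

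Genes were next ordered by their transcript signal, the mean percentile over the 8 wild-type RNA arrays of the series, whose pairwise Spearman correlations ran from 0.457 to 0.941. From the lowest to the highest quintile of transcript signal the median ORF ratio was 0.15, 0.10, 0.05, -0.10 and -0.19. The share of high ORFs was 18.3% in the lowest quintile and 8.50% in the highest, and that of low ORFs 9.94% and 16.9%. The median reference was 1245 in the lowest quintile and 1789 in the highest, and the median signal alone -0.05 and 0.04. Across 4880 ORFs the Spearman correlation with transcript signal was -0.140 for the ratio, 0.171 for the reference and 0.080 for the signal alone. For IGRs the medians over quintiles were 0.03, 0.11, 0.004, -0.002 and -0.16, and the correlations across 4685 regions were -0.066, 0.066 and 0.008. The points share one slide and the same probes, and the reference's part in the ratio is given by these values beside it.

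Base composition, which the ratio did not use, was read from the annotation. From the lowest to the highest quintile of G+C in the coding sequence, with median contents of 36.2% to 44.2%, the median ORF ratio was 0.40, 0.15, -0.03, -0.14 and -0.39. For the intergenic sequence upstream of the gene, with medians of 28.4% to 34.9%, the median IGR ratio was 0.59, 0.29, -0.03, -0.14 and -0.76, and the share of low regions was 4.16% in the lowest quintile and 37.1% in the highest. The Spearman correlation with G+C was -0.289 for the ORF ratio and -0.434 for the IGR ratio. It was 0.317 and 0.425 for the references and 0.087 and 0.019 for the signals alone. The sequence downstream of the gene gave -0.118 with the IGR ratio. In the 250-base windows shown for 4 genes above, taken over 2917 IGRs, it was -0.418. A run of at least 8 A or 8 T on either strand was in 20.2% of the windows of high IGRs, 17.04% of those of low IGRs and 19.4% of all 3321 such windows of the annotation.

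**Figure D5:**
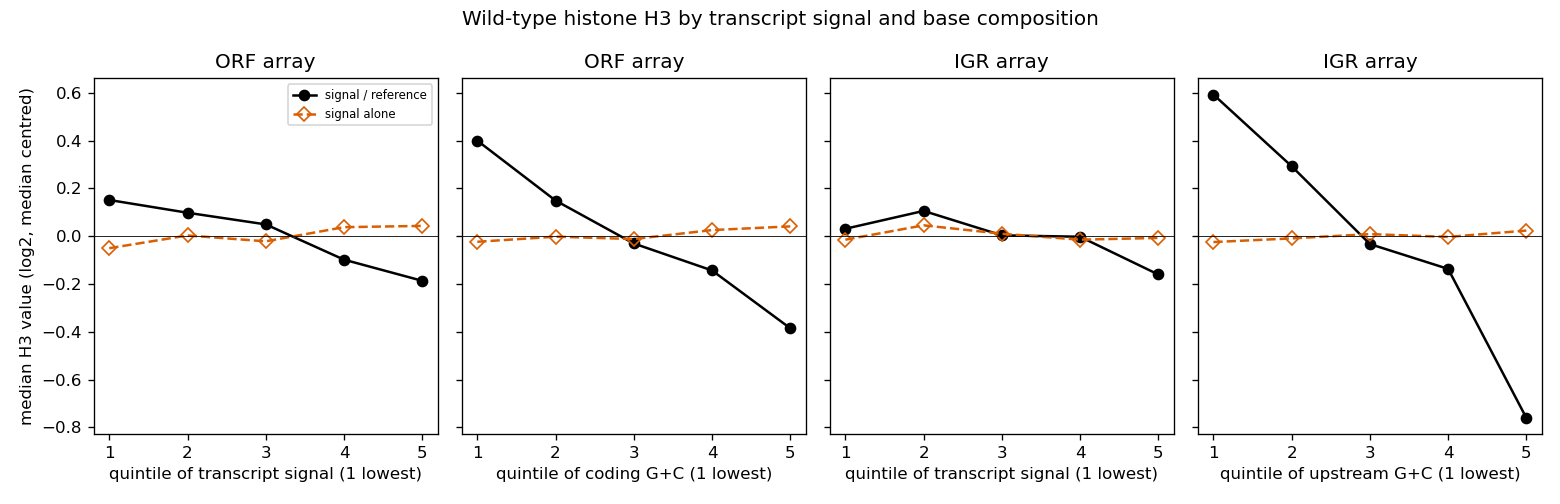
Median H3 ratio (filled circles) and median H3 signal alone (open diamonds), log2 and median centred, by quintile of wild-type transcript signal and of G+C content, for ORF regions (left pair) and IGR regions (right pair). The ratio is 0.59 in the lowest and -0.76 in the highest quintile of upstream G+C, while the signal alone stays near 0 in every panel.

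Along the chromosomes, regions near the ends of chromosomes I and II had the lowest ratios. Within 20 kb of an end 9 of 12 ORFs and 10 of 14 IGRs were low, against 12.1% and 16.2% of all ORF and IGR regions. Their median ratios were -1.48 and -2.05, and none was high. From 20 to 50 kb the medians were -0.59 and -0.92, and beyond 100 kb 0.06 and 0.05. The signal alone within 20 kb was above the median in ORFs (0.28) and below it in IGRs (-0.18), and the median references were 6413 and 2520. Many subtelomeric genes belong to duplicated families, and whether probes there take up DNA of several loci was not tested. Within 100 kb 15 of 93 ORFs (16.1%) and 14 of 95 IGRs (14.7%) were high, against 12.6% and 15.2% of all regions. Low were 26 of the 93 ORFs (28.0%) and 34 of the 95 IGRs (35.8%), against 12.1% and 16.2%. Chromosome III had a median ORF ratio of -0.24 with 16.9% low, against 0.07 and 11.03% for chromosome I and 0.05 and 10.6% for chromosome II. Its median signal alone was 0.02. Neighbouring genes had ratios that correlated at 0.148 (ORF) and 0.152 (IGR), references that correlated at 0.151 on both arrays, and signals that correlated at 0.368 (ORF) and 0.168 (IGR).

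Probes for heterochromatic and repeated DNA on the IGR array were read by their names. The dgII repeat had 1642 and 1191 over 4936 and a ratio of -2.52. The dh1 repeat was the exception among the dg and dh probes, with bright signals of 3522 and 2668 over 2241, a ratio of -0.25 and a signal alone of 1.53. At the inner centromere the probe imr2l had 1969 and 1857 over 154.75 and a ratio of 2.92, and the central cores cnt1, cnt2 and cnt3, where CENP-A replaces much of H3, had -0.36, 2.03 and -1.18. Their signals, 0.06, 0.14 and 0.07 when centred alone, were not above blank spots. A further probe, named for the cen3 central region, had signals above blank spots, 1346 and 1469 over 1485.5. Its ratio was -0.78 and its centred signal 0.40. At the mating-type locus matmi and matmc had ratios of -2.52 and -1.68, and their second probes -2.83 and -1.72, of which matmi alone had signals above blank spots. The telomeric probes differed, with -1.73 for one similar to c977 and 0.41 for one similar to c212, both with signals above blank spots. The 18 transfer RNA probes had a median ratio of -0.27 and a median signal alone of -0.02. Of them 2 were low and 1 high, where 16.2% of all IGR regions were low and 15.2% high.

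The signal alone could be set against the anti-H3 arrays of the hst2D and hst4D strains, which lack the sirtuin genes hst2 and hst4. Their labels name the input first and "H3 cterm beads" second, the reverse of the wild-type order. Whether their signal column holds the same channel, and whether the antibody was the same, is not stated. The correlations below may therefore not compare H3 with H3. Across ORF regions the wild-type signal had a Spearman correlation of 0.416 with hst2D and 0.417 with hst4D, and across IGR regions of 0.345 and 0.382. The spot sets within those arrays correlated at 0.294 and 0.30 on the ORF arrays and at 0.176 and 0.194 on the IGR arrays. Their ratios divide by the same reference column as the wild-type ratios, so a correlation of ratios is not given.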

How the data were processed

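Wild-type anti-H3 immunoprecipitates were hybridised to 1 ORF and 1 IGR array per the labels. The deposited tables give, per spot and for 1 channel, a median signal intensity, a local background intensity and the authors' reference intensity; the sources used here give neither scanner nor filters. Array depth has no count, and 1 array per probe set limits precision. Signals as given were divided by the reference, log2 transformed, averaged by name, centred on the median and averaged over spot sets (Python 3.11.15, pandas 2.3.3). High and low mean at least 2-fold in both spot sets. As a check of the code, signals for 4882 ORF and 4940 IGR regions were simulated as the reference times a set change. Noise was that between spot sets only. With 200 regions per array changed by 2 on the log2 scale, 200 were recovered on each and 0 of the others called. That setting nearly fixed the outcome, which says nothing on the calls in the real arrays. There the signal followed the reference only weakly (Spearman 0.314 for ORF and 0.271 for IGR regions). Names of 4646 ORF and 4714 IGR regions matched RefSeq genes.

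Members and gene lists were chosen with earlier results of these data known. Named regions were the 10 highest and 10 lowest called ratios per array above the 95th percentile of blank spots, the 5 largest and 5 smallest ORF minus IGR differences, list extremes, and the core histone, pst1, pst2, pst3, clr6, hst2 and hst4 genes; the text names extremes of some lists only. The planned centromere-proximal list was not used, since the annotation marks no centromere. Alternatives were each spot set alone, local background subtraction, normexp with an offset of 50 (limma 3.58.1, R 4.3.3), 2 filters, removal of a lowess curve (span 0.3, statsmodels 0.14.6) on the log2 reference, signal alone and a 1.5-fold limit. The authors' deposited table of log2 values, with medians of 0.28 (ORF) and -0.001 (IGR), carries row numbers without probe names and was not joined; its scale, centring and direction stay unknown.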

Additional observations from a re-analysis of the deposited data

How the results depend on the processing

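Calls at least 2-fold from the median, 1208 on the ORF array and 1550 on the IGR array, stayed within 1.5 times of these counts with either spot set alone, with local background subtracted and with normexp. They were 466 and 671 without the 25% of regions with the lowest reference, 580 and 529 above blank spots, 48 and 35 after loess on the reference, 68 and 46 in signal alone, and 2301 and 2518 at 1.5-fold. Fewer regions entered the 2 filters, and background subtraction left 4061 ORF and 4008 IGR regions. The correlations below in these settings also rest on fewer genes. The cause of the other changes was not tested. List medians below 0 numbered 36 of 59, and 30 to 35 under the alternatives, but 31 of the 59 kept their sign in signal alone and 37 after loess. The correlation of ORF with IGR, 0.122 over 4396 genes, was 0.046 over 2961 genes with background subtracted and 0.113 with normexp. It was 0.079 over 2498 genes without low references and 0.102 over 629 genes above blank spots. It turned to -0.039 after loess and -0.044 in signal alone. That of the ORF ratio with transcript signal, -0.140, was -0.138 in the first spot set, -0.059 with background subtracted, -0.112 with normexp, -0.078 without low references and -0.131 above blank spots, and turned to 0.030 after loess and 0.080 in signal alone. For IGRs, -0.066 was -0.050, -0.058, -0.022 and -0.058 in the same 4 settings, -0.012 after loess, and turned to 0.0077 in signal alone.

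Of the called regions named, some changed sign. In signal alone, low ORF regions above the median were SPAC1348.01 (0.16), SPAC750.08C (0.031), gnr1 (0.17), vta1 (0.83), hmt1 (0.16), mae2 (1.02), gud1 (0.79), dis1 (0.78), wtf13 (1.73), gpi2 (0.27), hta1 (0.63), hta2 (0.21), hst2 (0.44), rpn2 (0.36), cox1 (0.10), cox2 (0.32) and ght6 (0.45). Low IGR regions above the median were the long IGRs of SPAC212.06C (0.53), SPCC794.05c (0.43), clg1 (0.16), SPAC750.01 (0.32), SPAC1399.02 (0.69) and ght6 (0.54). So were the 18S promoter (0.91), p4c9_4860_1 (0.31), dg1 (0.65), dgII (0.39), partial dhII (0.76), SPAC56F8.15 (0.38), SPAC212.06C (0.65), hht2 (0.43), hhf2 (0.14), adh1 (0.35), matmi (0.66), the c977-like probe (0.27) and pb10d8_448065_1 (2.09). High regions below the median were pre1 (-0.18) and srb4 (-0.17) in ORFs and pdc102 (-0.24), pdc202 (-0.38) and pre9 (-0.15) in IGRs. After loess the ORFs vta1 (0.031), mae2 (0.20), gud1 (0.05), dis1 (0.041), wtf13 (0.69), hta1 (0.21), hst2 (0.21), pre1 (-0.0085) and srb4 (-0.0076) changed sign. So did the IGRs of the 18S promoter (0.22), dg1 (0.095), partial dhII (0.21), dgII (0.055), SPAC1399.02 (0.15), hht2 (0.19), pdc102 (-0.018), pdc202 (-0.16), long ght6 (0.30), matmi (0.28), the c977-like probe (0.090), SPAC212.06C (0.15) and pb10d8_448065_1 (1.61). With normexp pb10d8_448065_1 was 0.017, and with background subtracted the cnp1 ORF was -2.88. No paired analysis was possible because each probe set has 1 wild-type array, and leaving out a replicate was not possible for the same reason. The authors' value table was not used as a setting, since its rows could not be named. Signals near blank spots limit what low signals can show.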
